A study of Mus musculus with 6 samples.

Results

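Fxyd regulators and β subunits of the sodium pump were followed in mammary glands carrying grafts with or without the protease gene Adamts18. The 8 members, Fxyd1, Fxyd2, Fxyd3, Fxyd5, Fxyd6, Atp1b1, Atp1b2 and Atp1b3, are rows of the deposited count table taken by symbol, out of 34590 symbols in all. The group was selected on the lower read count of Fxyd2 in the Adamts18-/- gland of all 3 mice, so the values of Fxyd2 between genotypes are a description and carry no test. The other 7 members were added by name as relatives of Fxyd2 or as partners of the pump, although the group was put together with results of these data known. Other genes of salt and water transport come from a separate list of 50 genes.

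The study grafted mammary epithelium of WT.EGFP+ and Adamts18-/-.EGFP+ donors into contralateral glands (gland number 4) of WT female hosts whose own epithelium had been removed. The WT graft was always on the left and the Adamts18-/- graft on the right, so genotype and side cannot be told apart. All donors carried an EGFP transgene driven by a chicken β-actin promoter, the lines were kept on a C57BL/6JOlaHsd background, and the mutant allele lacks a pair of exons in every cell of the donor while the host stroma is WT. RNA-seq covered 3 glands of each genotype, 1 pair per host mouse, and the time between grafting and RNA extraction is not given in the sources used here. The paper states that the pairs came from separate experiments and that the donors differed. Differences between mice below therefore cannot be told apart from differences between donors or experiments.

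The sodium pump, or Na/K-ATPase, moves sodium out of the cell and potassium in at the cost of ATP. Its α subunit carries the catalytic cycle, its β subunit is a glycosylated partner needed for folding and delivery to the membrane, and a small single-span protein of the FXYD family, named after a run of conserved amino acids, binds the complex and tunes its affinity for ions. In secretory epithelia such as the mammary gland the pump sits mainly in the basolateral membrane and keeps up the sodium gradient that channels, exchangers and cotransporters use. Fxyd2, the γ subunit, is best known from the kidney tubule. Fxyd1 (phospholemman) is known from heart and skeletal muscle, Fxyd3 (Mat-8) from epithelia and mammary tumours, Fxyd5 (dysadherin) from epithelia and lymphocytes, and Fxyd6 (phosphohippolin) from the nervous system.

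The coding sequence around the signature shows what the Fxyd members have in common and how they differ, and is given for the 5 members because it defines the family. Each window holds 60 coding bases read from a GENCODE M21 transcript on GRCm38, written 5′ to 3′ on the coding strand, with the 4 signature codons in capitals. The windows cross exon boundaries and lie within chr7:31053449-31054306 (minus strand), chr9:45408111-45408325 (plus strand), chr7:31071341-31072190 (minus strand), chr7:31035258-31036439 (minus strand) and chr9:45390639-45390802 (plus strand), in the order printed.

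Fxyd1: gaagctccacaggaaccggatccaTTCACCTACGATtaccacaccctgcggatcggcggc
Fxyd2: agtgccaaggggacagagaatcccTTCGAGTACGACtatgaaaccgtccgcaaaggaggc
Fxyd3: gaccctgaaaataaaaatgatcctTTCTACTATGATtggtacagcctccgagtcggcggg
Fxyd5: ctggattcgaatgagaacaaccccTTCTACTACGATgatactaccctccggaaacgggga
Fxyd6: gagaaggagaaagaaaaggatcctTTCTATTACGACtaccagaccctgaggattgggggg

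Each reading frame held the signature once. It began at codon 17 of 64 in Fxyd2, at codons 29 of 92 and 29 of 94 in Fxyd1 and Fxyd6 and at codon 30 of 88 in Fxyd3. In Fxyd5 it began at codon 135 of 178, because this member has a long stretch ahead of the signature. Of the 60 bases, 32 were the same as in Fxyd2 in Fxyd1, Fxyd5 and Fxyd6, and 29 in Fxyd3. Within the 12 capital bases, Fxyd6 matched Fxyd2 at 10, Fxyd5 at 9, and Fxyd1 and Fxyd3 at 8 each. Fxyd6 and Fxyd2 are also neighbours on chromosome 9, at 45370185 to 45396159 and 45399669 to 45410278 on the plus strand. Fxyd5 (31032722 to 31042481), Fxyd1 (31051678 to 31057199) and Fxyd3 (31068172 to 31076704) lie in a row on the minus strand of chromosome 7, with Fxyd7 between Fxyd5 and Fxyd1. The β subunit genes are spread over 3 chromosomes: Atp1b1 on chromosome 1 (164437109 to 164458355), Atp1b2 on chromosome 11 (69599736 to 69605942) and Atp1b3 on chromosome 9 (96332655 to 96364442), all on the minus strand.

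Total counts were between 53875123 and 71595924 per gland, and all 8 members were among the 17345 genes that passed the filter on low counts. Values are given as CPM, read counts scaled to a common library size with edgeR's TMM factors, or as log2 fold changes of Adamts18-/- against WT. The fold changes come from the quasi-likelihood model of edgeR, in which the host mouse is a block. A gene was called lower when its fold change was under 0.8, or higher when it was over the inverse of 0.8, and its unadjusted p was under 0.05, the thresholds of the study. In Adamts18-/- glands 1.84% of all tested genes were called lower and 1.17% higher, and 3.86% (670 genes) had an unadjusted p under 0.05. After Benjamini-Hochberg adjustment over all genes edgeR called 0 genes (0%), with a smallest adjusted p of 0.771, limma-voom called 0 and DESeq2 called 71, which held none of the 7 members other than Fxyd2. Adamts18, the targeted gene, had 3.61, 9.92 and 6.80 CPM in the WT gland of mouse 1, 2 and 3, respectively, and 2.75, 4.87 and 3.29 CPM in the mutant gland. The deposited counts cover the whole gene and cannot separate the deleted exons from the others.

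The labels describe the RNA as coming from sorted GFP+ mammary epithelial cells, but markers of other tissues were abundant, and of all marker genes the milk gene Wap alone was at 0 in any gland. Averaged over the glands, the adipocyte gene Cfd had 5943 CPM and the fibroblast gene Col3a1 3603 CPM, against 365 CPM for the epithelial keratin Krt19 and 405 CPM for the myoepithelial actin Acta2. The most abundant endothelial, Schwann cell, macrophage, T cell and B cell markers were Pecam1 (199 CPM), Pmp22 (366 CPM), Lyz2 (1036 CPM), Cd4 (27.1 CPM) and Cd79a (34.4 CPM). Those of the hormone-sensing and secretory luminal lists were Ly6a (364 CPM) and Kit (167 CPM). Median log2 fold changes were -0.14 for adipocyte, 0.065 for fibroblast, -0.15 for endothelial, -0.12 for Schwann cell, 0.047 for macrophage, 0.22 for T cell and 0.65 for B cell markers, with 0 calls in each list. The libraries are therefore called glands here. In such bulk RNA, fewer cells of a type and less RNA per cell cannot be told apart.

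Fxyd2 was the member with the largest difference between genotypes and the only one of the 8 whose glands did not overlap. In mice 1, 2 and 3 the WT gland had 36.2, 46.2 and 26.3 CPM and the Adamts18-/- gland 18.9, 18.9 and 13.5 CPM. These rest on 2526, 2835 and 1481 reads in WT and 990, 1143 and 828 reads in Adamts18-/- glands, well above the 3 counts that a count of 0 allows. The Adamts18-/- gland thus had 52.3%, 40.8% and 51.2% of the Fxyd2 level of the WT gland in the same mouse. The mean was 36.3 ± 9.97 CPM for WT glands and 17.1 ± 3.13 CPM for the mutant ones (SD, n = 3). The fitted log2 fold change was -1.07 (SE 0.11), and 49 of the 17345 tested genes had a lower one. Without the mouse block, which ignores that the glands are contralateral pairs, it was -1.09 with an SE of 0.25. Over all genes, every Adamts18-/- gland was below every WT gland for 2.63%, and 12.7% were lower in the Adamts18-/- gland of all 3 mice. Since this contrast chose the gene, nothing is read from its place among them.

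**Figure D1:**
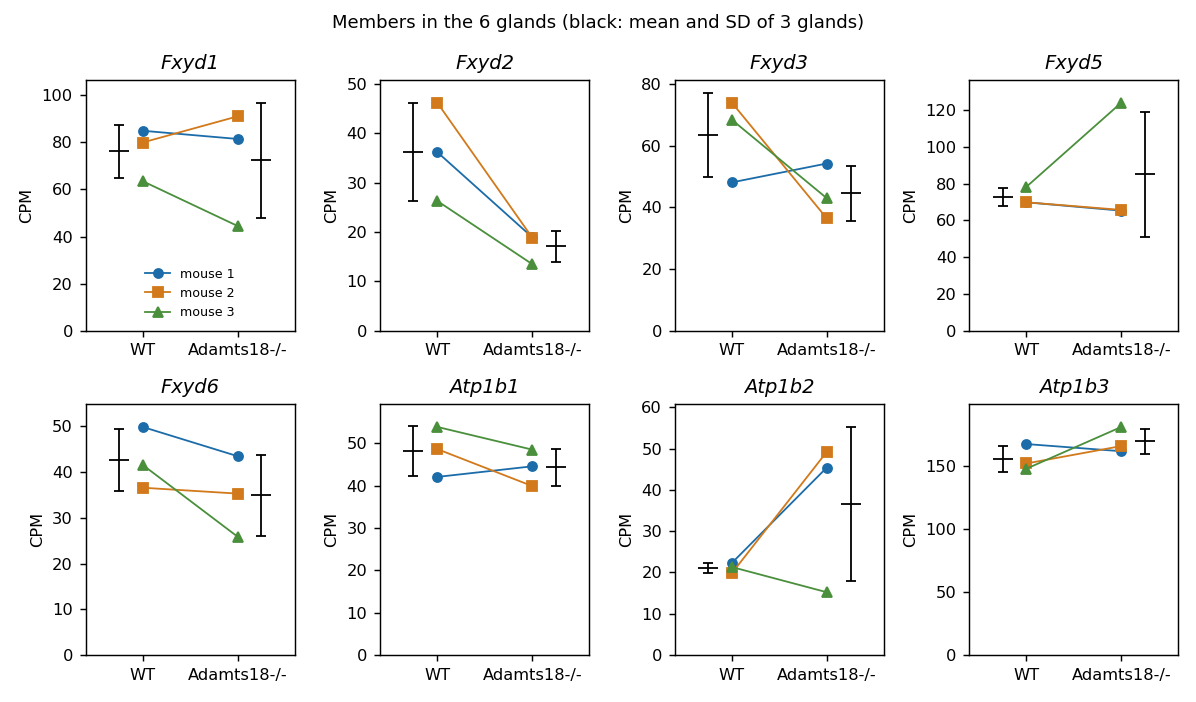
CPM of each member (vertical axes, from 0) in the WT and the Adamts18-/- gland of each host mouse, joined by a line per mouse, with the mean and SD of 3 glands in black beside each genotype. Only for Fxyd2 do the lines of all 3 mice end below the lowest WT gland (26.3 CPM), whereas Atp1b2 moves up in mice 1 and 2 and down in mouse 3.

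Within Fxyd2, the level also differed among the pairs of glands. In both genotypes mouse 3 was the lowest, at 26.3 and 13.5 CPM, and the fitted difference of mouse 3 against mouse 1 was -0.48 on the log2 scale. No test is given for it, because the choice of the gene on agreeing pairs also lowers the spread that such a test would use. For the mouse term, 0.628% of all genes had an adjusted p under 0.05 by edgeR, and none of the 7 other members was among them. Genotype accounted for 77.6% of the variance of Fxyd2 in log2 CPM, mouse for 20.6% and the rest for 1.80%. The medians over all tested genes were 5.98%, 67.3% and 19.1%. The genotype share of Fxyd2 is again set by the choice of the gene.

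Most epithelial markers had, like Fxyd2, fold changes below 1. Of 20 pan-epithelial genes, such as keratins and claudins, 8 were called lower and all 20 had fold changes below 1 (median log2 fold change -0.41, against 0.00065 over all genes). The list called lower includes Krt8, Krt18 and Krt19. The summed level of all 20 genes was 1907, 2475 and 2724 CPM in the WT glands and 1832, 1457 and 1835 CPM in the Adamts18-/- glands. Lower calls were made for 5 of 10 hormone-sensing luminal genes (median log2 fold change -0.32) and for 1 of 8 tested secretory luminal genes (median -0.52). For myoepithelial genes they were 9 of 10 (median -0.49), where 1.84% of all genes were called lower. The lists share genes, so these calls are not separate. Prom1 (hormone-sensing), Elf5 (the only secretory luminal call) and Krt14 (myoepithelial) are also among the 8 pan-epithelial calls. In mouse 1 the pan-epithelial sum was nearly level between the glands (log2 difference -0.058) while the Fxyd2 log2 difference was -0.93. Genes of the list moved both ways in that mouse, with Krt19 at -0.40 and Prom1 at -0.43 but Ehf at 0.77 and Epcam at 0.28. Krt19, Krt18 and Krt8 weigh most in the sum, and whether it follows the epithelial cells was not tested. Per 1000 CPM of the pan-epithelial sum, Fxyd2 was at 19.0, 18.7 and 9.66 in WT glands and at 10.3, 12.9 and 7.34 in Adamts18-/- glands. These ratios were lower in the Adamts18-/- gland of each mouse, with log2 differences of -0.88, -0.53 and -0.40, but the genotypes overlapped. Per 1000 CPM of the hormone-sensing luminal sum, Fxyd2 stood at 32.8, 50.6 and 20.1 in WT and at 18.8, 23.1 and 15.5 in Adamts18-/- glands, with log2 differences of -0.81, -1.13 and -0.37. Ly6a (mean 362 CPM in WT and 366 CPM in Adamts18-/- glands) and Prlr (375 and 249 CPM) weigh most in this sum. Whether the sum follows the hormone-sensing cells was not tested. The corresponding differences were -1.15, -0.32 and -0.34 against the secretory luminal sum and -0.63, -0.83 and -0.38 against the myoepithelial sum. The secretory luminal sum itself was higher in the Adamts18-/- gland of mouse 1 (log2 difference 0.21) and lower in mice 2 and 3 (-0.97 and -0.63). In mouse 2 its gene Ltf alone went from 291 CPM in the WT gland to 40.5 CPM in the Adamts18-/- gland. With counts scaled to the pan-epithelial genes, the log2 fold change of Fxyd2 was -0.60 (SE 0.30), where the median of all genes moved to 0.46. The part of the epithelial markers in the lower Fxyd2 level was not tested.

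Fxyd3, which is known from epithelia like Fxyd2, differed between mice in direction. It was at 48.1, 74.0 and 68.4 CPM in the WT glands and at 54.2, 36.4 and 42.9 CPM in the Adamts18-/- glands. The Adamts18-/- gland was slightly higher in mouse 1 and lower in mice 2 and 3. The log2 fold change of -0.51 (SE 0.24) did not pass (unadjusted p = 0.0950, adjusted p = 0.987). Without mouse 1 it was -0.85 with an unadjusted p of 0.00412 and an adjusted p of 1, and with DESeq2 on all glands its unadjusted p was 0.0335. Per 1000 CPM of the pan-epithelial sum, Fxyd3 stayed between 23.4 and 29.9 in all 6 glands and the genotypes overlapped. Its exons share 2059 bases with Lgi4 on the other strand. The strand setting of the counting is not given in the sources used here, so reads of these genes may not be told apart in the overlap.

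Fxyd1, the regulator known from muscle, varied more between the pairs, which differ in host, donor and experiment, than between genotypes. Its levels were 85.0, 80.0 and 63.6 CPM in WT glands and 81.5, 91.1 and 44.5 CPM in Adamts18-/- glands, so mouse 3 was lowest for both genotypes. Mouse accounted for 79.5% of its variance and genotype for 3.37%. The log2 difference of mouse 3 against mouse 1 was -0.63 (unadjusted p = 0.0291 for the mouse term, adjusted p = 0.145). The genotype log2 fold change was -0.13 (SE 0.15, unadjusted p = 0.430). Without mouse 3 it was 0.072. Summed adipocyte markers were also lower in mouse 3, at 12720 and 9881 CPM against 20631 to 24167 CPM in the other 4 glands, and their part in the level of Fxyd1 was not tested.

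Fxyd6 and Fxyd5 were each apart in 1 gland of mouse 3. Fxyd6 was at 49.9, 36.6 and 41.6 CPM in WT glands and 43.5, 35.3 and 25.9 CPM in Adamts18-/- glands. It was the only member besides Fxyd2 that was lower in the Adamts18-/- gland of all 3 mice, a pattern met by 12.7% of all genes. Its log2 differences were -0.20, -0.05 and -0.68, and the fitted value of -0.31 (SE 0.14) did not pass (unadjusted p = 0.0847). Fxyd5 was at 69.8, 69.8 and 78.2 CPM in WT glands and 65.2, 65.6 and 124.1 CPM in Adamts18-/- glands. The Adamts18-/- gland of mouse 3 stood alone, and without that mouse the log2 fold change turned from 0.16 (SE 0.18, unadjusted p = 0.412) to -0.085. In the same gland the summed B cell markers were 540 CPM, against 117 CPM in the WT gland of mouse 3 and 8.15 to 13.4 CPM in the other 4 glands. Summed T cell markers were 376 CPM there, against 141 CPM in its WT partner and 20.0 to 52.9 CPM elsewhere. Whether these cells carried the Fxyd5 reads was not tested.

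**Figure D2:**
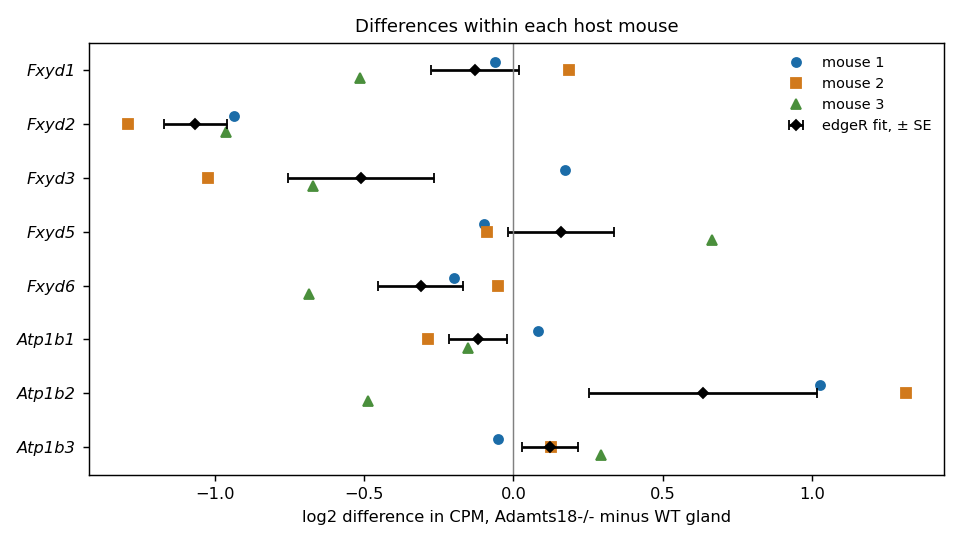
Log2 difference in CPM between the Adamts18-/- and the WT gland (horizontal axis) in each host mouse, with the edgeR log2 fold change and its SE as a black diamond, for the 8 members. The 3 mice lie between -1.29 and -0.93 for Fxyd2, while for Fxyd1, Fxyd3, Fxyd5 and the β subunit genes they lie on both sides of 0.

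The β subunit genes behaved unlike one another. Atp1b3, the most abundant of them, was at 167.5, 152.1 and 147.9 CPM in WT glands and 161.8, 165.9 and 181.1 CPM in Adamts18-/- glands. Its range over all 6 glands was only 1.22-fold, and the log2 fold change of 0.12 (SE 0.095) did not pass (unadjusted p = 0.255). Atp1b1, the β subunit most often named in transporting epithelia, was at 42.0, 48.6 and 53.9 CPM in WT and 44.6, 39.9 and 48.5 CPM in Adamts18-/- glands. Its log2 fold change of -0.12 (SE 0.097) did not pass either (unadjusted p = 0.281). Exons of Atp1b1 share 575 bases with Nme7 on the other strand.

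Atp1b2, first described as an adhesion molecule on glia and also made in fast skeletal muscle, varied the most of the 3. The WT glands were close together at 22.3, 19.8 and 21.3 CPM. The Adamts18-/- glands had 45.4, 49.3 and 15.2 CPM, which is 204% and 249% of the WT gland in mice 1 and 2 and 71.3% in mouse 3. Over the 3 mice the log2 fold change was 0.64 (SE 0.38) and did not pass (unadjusted p = 0.161, adjusted p = 0.987). Without mouse 3 it was 1.18 (SE 0.099), with an unadjusted p of 6.13e-05 and an adjusted p of 0.00943 by edgeR, so mouse 3 decides this call. Over the 6 glands Atp1b2 ranged 3.24-fold.

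Skeletal muscle markers took the same course. In mice 1, 2 and 3 their sum was 301, 875 and 2909 CPM in the WT gland and 11413, 11331 and 1968 CPM in the Adamts18-/- gland. The log2 differences of this sum were 5.24, 3.69 and -0.56, beside 1.03, 1.31 and -0.49 for Atp1b2. All 10 muscle markers had positive log2 fold changes (median 3.00), yet 0 of 10 passed the thresholds in the fit over the 3 mice. Among the WT glands, by contrast, the muscle sum ranged from 301 to 2909 CPM while Atp1b2 stayed between 19.8 and 22.3 CPM. The most abundant muscle marker, Myh4, the myosin of fast fibres, averaged 2016 CPM. Their part in the Atp1b2 difference was not tested.

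**Figure D3:**
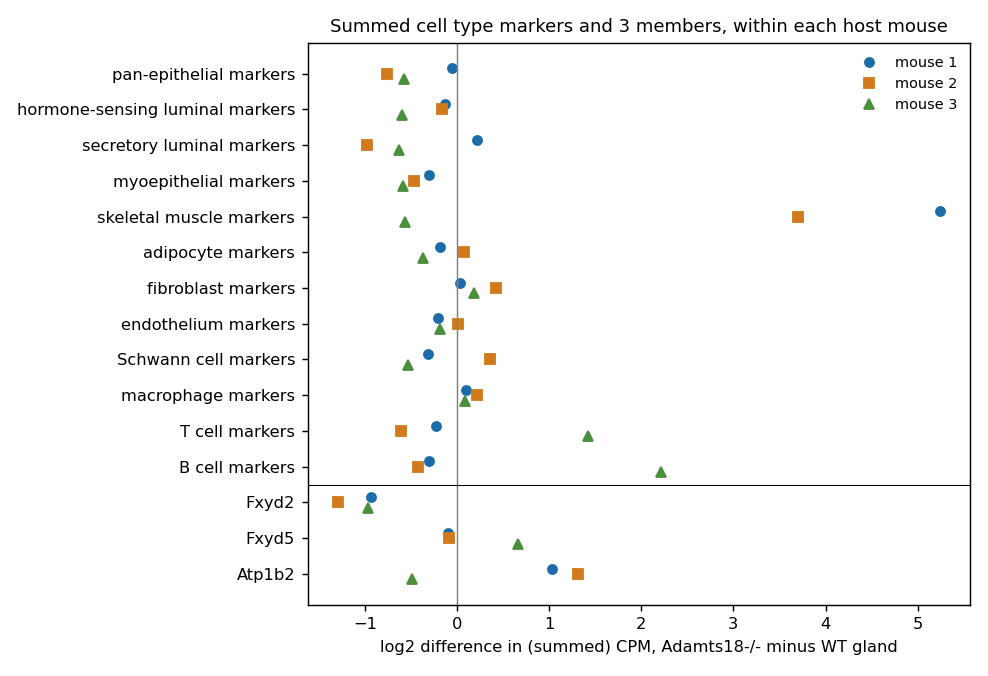
Log2 difference between the Adamts18-/- and the WT gland (horizontal axis) in each host mouse, for the summed CPM of each marker list and, below the line, for Fxyd2, Fxyd5 and Atp1b2. Skeletal muscle markers lie at 5.24 and 3.69 in mice 1 and 2 and at -0.56 in mouse 3, and B cell markers at 2.21 in mouse 3.

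Among the 7 members other than Fxyd2, 0 were called lower and 0 higher, and 0 had an unadjusted p under 0.05, where 1.84%, 1.17% and 3.86% of all genes did. None was higher in the Adamts18-/- gland of all 3 mice, beside 10.8% of all genes. Their median log2 fold change was -0.12, and the median of its absolute size was 0.16, against 0.098 over all tested genes. Mouse took a median of 51.8% of the variance of these members and genotype 24.1%.

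Levels of different genes were compared as CPM per kb of annotated exons in WT glands. By the length of all exons of the gene, Atp1b3 came first at 65.2 ± 4.32 CPM per kb, followed by Fxyd1 at 34.8 ± 5.12 and Fxyd5 at 17.3 ± 1.16 (SD, n = 3). Next were Atp1b1 at 15.6 ± 1.92, Fxyd3 at 13.1 ± 2.81, Fxyd6 at 10.4 ± 1.64, Fxyd2 at 9.05 ± 2.49 and Atp1b2 at 5.17 ± 0.306 CPM per kb (SD, n = 3). From Fxyd5 to Fxyd2, each gene overlapped with the next one in the 3 WT glands. The order depended on the length used. By the median length of coding transcripts, 439 bases for Fxyd3 and 650 for Fxyd2 against 4850 and 4005 exon bases, Fxyd3 and Fxyd1 led at 145 ± 31.1 and 142 ± 20.9 CPM per kb, and Fxyd2 stood at 55.8 ± 15.3, above Atp1b1 at 30.0 ± 3.69 (SD, n = 3).

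Fxyd2 made up 10.1%, 12.6% and 8.10% of the summed Fxyd level per kb in the WT glands and 5.78%, 5.80% and 4.83% in the Adamts18-/- glands. With the coding transcript length these shares were 12.6%, 14.3% and 9.24% in WT and 7.06%, 7.51% and 5.58% in Adamts18-/- glands. By both lengths its share was lower in the Adamts18-/- gland of each mouse. The shares use the same Fxyd2 counts on which the gene was chosen, so they are a description and no further support. Fxyd1 was the largest share by exon length in 5 of 6 glands, at 35.9% to 51.4%, and Fxyd5 was the largest in the Adamts18-/- gland of mouse 3 at 42.5%. Among the β subunits, Atp1b3 made up 72.6% to 79.6% in all glands. Atp1b2 went from 6.11% to 11.9% in mouse 1, from 5.75% to 12.8% in mouse 2 and from 6.17% to 3.90% in mouse 3.

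**Figure D4:**
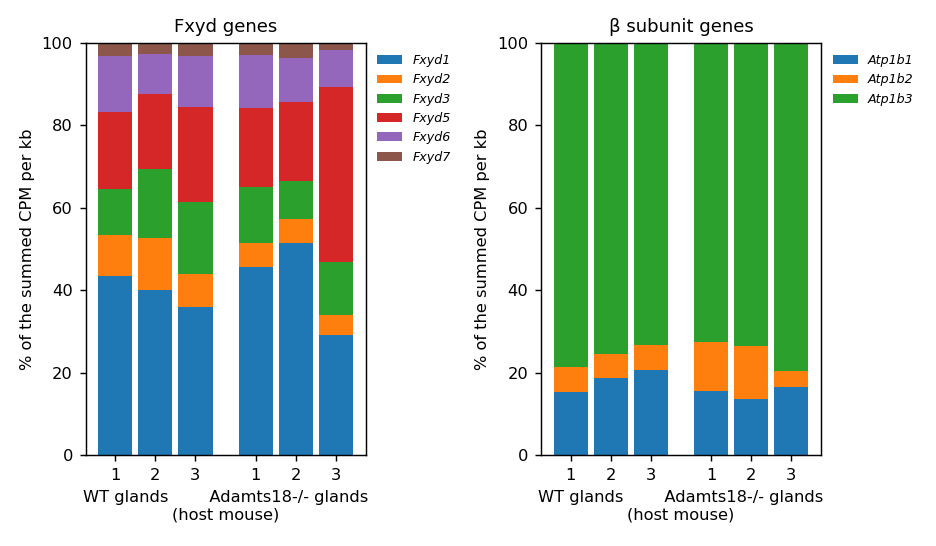
Share of each gene in the summed CPM per kb of all exons (vertical axes, in %) of the Fxyd and β subunit genes in each gland, genes under 0.5% not drawn. Fxyd2 takes 8.10% to 12.6% of the Fxyd sum in WT and 4.83% to 5.80% in Adamts18-/- glands, and Atp1b3 takes 72.6% to 79.6% of the β sum in all glands.

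Of the remaining family members, Fxyd7 stayed between 0.797 and 2.06 CPM (log2 fold change -0.35, unadjusted p = 0.334). Fxyd4 and Atp1b4 had at most 7 and 6 reads in a gland and were too low to test.

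Sodium channel genes were called lower among the transport genes. Of the 50 listed genes 44 could be tested, 7 of them (15.9%) were called lower, beside 1.84% of all genes, and 0 higher. The log2 fold change was below 0 for 31 of the 44, and its median was -0.12. Over all tested genes 49.8% were below 0, with a median of 0.00065. All 20 pan-epithelial markers were below 0 as well (median -0.41), so the direction is not particular to transport genes. The list was chosen with earlier results of these data known. Without mouse 1 all 7 kept their calls. Without mouse 2 only 2 genes passed, Scnn1b as lower and Kcnn4 as higher, and without mouse 3 the genes past the thresholds were 3 lower and 3 higher, with Scnn1a and Scnn1b the only ones of the 7. Scnn1b was thus the only gene of the list called lower whichever mouse was left out, and the calls of Kcnk1, Kcnk5, Ano1, Aqp5 and St14 needed both mouse 2 and mouse 3. Without the mouse block for the contralateral pairs 4 genes passed. The share of all genes called without a mouse or without the block is not given here. Scaling to the pan-epithelial genes, which shifts all genes alike and moved their median log2 fold change to 0.46, left 0 of the 7 past the thresholds and put 5 other list genes past them as higher, beside 0.144% of all genes called lower and 13.1% higher. Because the shift is common to all genes, values relative to that median are bound to stay as they were, at -0.81 for Scnn1a and -1.03 for Scnn1b. They are therefore no check of the calls. Scaling to the hormone-sensing luminal genes (median of all genes 0.30) kept the lower calls of Scnn1a and Scnn1b, added Scnn1g, and put 5 genes past as higher, beside 0.294% of all genes lower and 10.2% higher. This scaling rests mostly on Ly6a and Prlr, and whether it follows the hormone-sensing cells was not tested.

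Scnn1a and Scnn1b code for the α and β subunits of the epithelial sodium channel ENaC, through which sodium enters from the apical side before the pump removes it. Scnn1a was at 22.3, 26.7 and 34.9 CPM in WT glands and 18.7, 13.0 and 16.0 CPM in Adamts18-/- glands, without overlap (log2 fold change -0.81, SE 0.20, unadjusted p = 0.0112). Scnn1b was at 18.2, 19.4 and 15.4 CPM in WT glands and 10.6, 11.04 and 5.45 CPM in Adamts18-/- glands, again without overlap (log2 fold change -1.03, SE 0.18, unadjusted p = 0.00301). The γ subunit gene Scnn1g was scarce, at 1.78 ± 0.382 CPM in WT and 0.914 ± 0.625 CPM in Adamts18-/- glands (SD, n = 3), and its log2 fold change of -1.12 did not pass (unadjusted p = 0.0573). St14, the membrane protease matriptase, which can cleave and activate ENaC, had a log2 fold change of -0.43 (unadjusted p = 0.0459).

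The other calls were channels for potassium, chloride and water. Kcnk5 and Kcnk1, both 2-pore potassium channels, had log2 fold changes of -0.52 and -0.38 (unadjusted p = 0.0336 and 0.0397). Ano1, a calcium-activated chloride channel, went from 226 ± 12.6 to 161 ± 36.1 CPM (SD, n = 3; log2 fold change -0.51). Aqp5, an apical water channel of gland epithelia, went from 71.4 ± 7.57 to 48.5 ± 12.7 CPM (SD, n = 3; log2 fold change -0.58). Unadjusted p was 0.0266 for Ano1 and 0.0321 for Aqp5. The most abundant genes of the remaining roles had no call. They were the sodium, potassium and chloride cotransporter Slc12a2 (544 ± 123 and 463 ± 128 CPM in WT and Adamts18-/- glands, log2 fold change -0.25), the water channel Aqp1 (587 ± 152 and 540 ± 211 CPM, log2 fold change -0.16), the kinase Wnk1 (348 ± 17.0 and 368 ± 16.1 CPM, log2 fold change 0.08) and the proton pump subunit Atp4b, at 0.339 CPM over all glands.

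**Figure D5:**
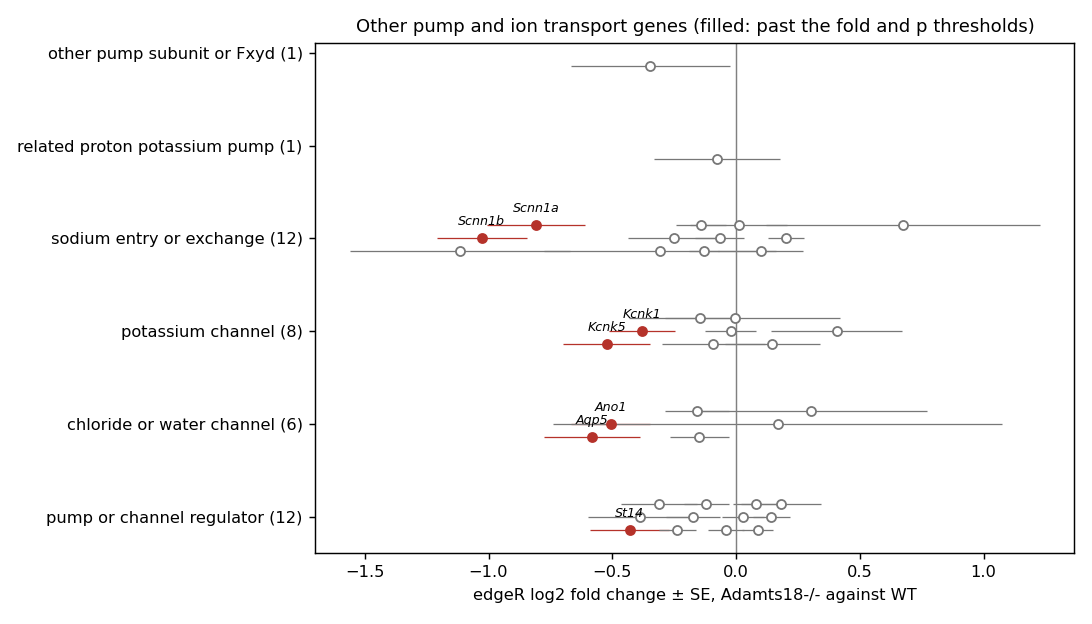
edgeR log2 fold change and SE (horizontal axis) of tested genes of the transport list, grouped by role with the number of genes in brackets, filled where past the thresholds. The 7 filled genes lie between -1.03 (Scnn1b) and -0.38 (Kcnk1), and no gene on the right of 0 is filled.

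The genes whose log2 CPM ran most like that of Fxyd2 over the 6 glands were Pgp (Pearson r = 0.995), Rab6b (0.987), Polr2h (0.982), Rpgr (0.979) and Nlgn2 (0.966), out of 14709 genes with a mean of at least 1 CPM. The 6 glands come from 3 mice and the values share the glands, so this is a description. Rab6b, a small GTPase of Golgi transport, had log2 differences of -0.80, -0.86 and -0.88 in the 3 mice, near those of Fxyd2, whereas Polr2h, a subunit of the RNA polymerases, differed by only -0.05 to -0.07. Of genes described above, Scnn1b ranked 37th (r = 0.936), Fxyd3 1240th (0.656), Scnn1a 1325th (0.646) and Atp1b1 6735th (0.101). Since Fxyd2 was chosen for its genotype difference in these same glands, genes that differ likewise, among them Scnn1b, are placed high by that choice. Nothing is read from the ranks.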

How the data were processed

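RNA was sequenced as single-end reads of 85 bp on an Illumina instrument. The submitters' processing notes name bcl2fastq 2.18, TopHat2 2.0.11, featureCounts 1.6.2, edgeR and build mm9, without their settings. The authors deposited raw counts per gene symbol, 1 column per gland, with 0 columns of other samples. Groups, mouse and side come from the sample labels. Counts of 17345 genes kept by filterByExpr were scaled by TMM and tested in R 4.3.3 with edgeR 4.0.16 (quasi-likelihood, mouse as a block), with a prior count of 2 for log2 CPM. The median biological coefficient of variation was 16.3%. Deviations of contralateral glands from their group means correlated at 0.512, 0.505 and 0.639 across genes. The pairing comes from the labels.

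The members and lists were chosen with earlier results of these data known. Named genes are the members, their family, list genes past the thresholds, the most abundant gene of each role or marker list, and the 5 genes most like Fxyd2. Kcnn4, Scnn1g, the Krt8 and Krt18 examples and the genes ranked after the first 5 were added once their values were seen, as were the scaling to hormone-sensing luminal genes, the mouse term and the coding transcript length. Positions, sequences and exon lengths are from GENCODE M21 on GRCm38, not the build of the counts, and 29283 of 34590 symbols had a length. No protein sequence was used. Some genes that the rule selects are not reported here, though they stayed in the fits and in the counts over the list. Alternatives were no block, DESeq2 1.42.0, limma 3.58.1 (voom), other scalings and filters, and each mouse left out. The fit was tested on simulated data.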

Additional observations from a re-analysis of the deposited data

How the results depend on the processing

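The fitted log2 fold change of Fxyd2 was negative in every alternative run, from -1.13 to -0.60. Because Fxyd2 was chosen for its lower count in all 3 mice, this sign is no check of the difference. It was -1.09 without the replicate block for the contralateral pairs and lay between -1.13 and -0.95 when a mouse was left out. Scaling to pan-epithelial genes gave -0.60 and scaling to hormone-sensing luminal genes -0.77. These scalings shift all genes alike and moved their median to 0.46 and 0.30. Values relative to that median, -1.07 for Fxyd2, therefore stay near those of the main fit by construction and check nothing. Under the pan-epithelial scaling Fxyd1 (0.33), Fxyd6 (0.15) and Atp1b1 (0.35) changed sign, and under the hormone-sensing luminal scaling Fxyd1 (0.17) and Atp1b1 (0.18). Relative to the median of all genes they were at -0.13, -0.31 and -0.12 under the first scaling. With a mouse left out, Fxyd1 ranged from -0.29 to 0.072 and Fxyd5 from -0.085 to 0.29, both changing sign without mouse 3.

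The count of members past the thresholds was 1, and 0 by the adjusted p of edgeR on all glands. Each count at the thresholds includes Fxyd2, which was chosen on this contrast, so its part in them is no test. DESeq2 called 71 genes by adjusted p, and none of the 7 members other than Fxyd2 was among them. Under edgeR, Atp1b2 had an adjusted p of 0.0316 with pan-epithelial scaling, 0.0856 with hormone-sensing luminal scaling and 0.00943 without mouse 3. At the thresholds the count was 2 with DESeq2 (Fxyd2, Fxyd3) and 1 to 2 with a mouse left out. The share of all genes called in these runs is not given here, so nothing is read from these counts. It was 2 with pan-epithelial scaling (Fxyd2, Atp1b2) and 3 with hormone-sensing luminal scaling (with Atp1b2 and Atp1b3 higher). Under these scalings 13.1% and 10.2% of all genes, respectively, were called higher. The log2 fold change of Atp1b3 under the latter was 0.42, where the median of all genes was 0.30. The count of other transport genes was 7, 0 by the adjusted p of edgeR, 4 without the replicate block, and 2 to 9 with a mouse left out. DESeq2 called 8, all lower. Pan-epithelial scaling gave 5, all higher and none of the 7, and hormone-sensing luminal scaling gave 3 lower (Scnn1a, Scnn1b, Scnn1g) and 5 higher. The remaining scalings and filters gave 6 to 8. At the thresholds, the share of all genes called is given here only for the main fit and the marker scalings. The other counts therefore cannot be set against it. Of the values of single members, 89 kept their direction and side of the threshold, 6 newly passed it and 7 changed sign. The other 2, those of Fxyd2 under the marker scalings, kept direction and side but moved in size. Genotype cannot be told apart from side.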
